A study of Mus musculus with 4 samples.

Results

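The DNA replication and S phase genes analysed here were 50 genes listed by symbol, which cover the replicative helicase and its loading, the polymerases, the sliding clamp, the processing of Okazaki fragments, nucleotide supply, the copying of chromatin, homologous recombination and the switch from G1 to S phase. All 50 were found by symbol among the 41214 genes of the count table. The rule that picks them uses gene names and no measured value. The list was nevertheless drawn up with earlier results of these data known, as were the other gene lists and the promoter words below. The RNA-seq data came from B cells that were selected from mouse spleen with an antibody to B220 (CD45R) and had not been stimulated. There were 2 libraries of MIZ-1WT and 2 libraries of MIZ-1ΔPOZ, numbered as replicates in the labels and described in the sources used here as biological duplicates. MIZ-1, encoded by *Zbtb17*, is a zinc finger transcription factor whose POZ domain mediates its assembly and its partnership with other factors. In MIZ-1ΔPOZ mice, the exons of the POZ domain were floxed and removed by Cre recombinase expressed from the *Mb1* (*Cd79a*) locus, which acts from early B cell stages on. The animals were young adults on the C57BL/6 background. The sources used here do not say whether the MIZ-1WT animals carried Cre or the floxed allele, or how many animals went into a library.

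DNA is copied once per cell cycle. In G1, the origin recognition complex, CDC6 and CDT1 load the ring-shaped MCM2-7 helicase onto origins. At the start of S phase, CDC45 and GINS join the ring to form the active CMG helicase, and polymerases, the PCNA clamp and RPA assemble at the fork. Resting splenic B cells sit in G0, and the genes for these proteins are switched on by E2F factors when a cell re-enters the cycle.

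Of the 50 genes, 40 were higher in MIZ-1ΔPOZ than in MIZ-1WT, 2 were lower (*Cdt1* and *Pold1*), and 8 did not pass the test (*Gins4*, *Prim1*, *Prim2*, *Rfc1*, *Rfc3*, *Rpa1*, *Rpa3* and *E2f2*). A gene was called when its p from edgeR's quasi-likelihood test, adjusted by the Benjamini-Hochberg method over the 14554 genes tested, was under 0.05. Among all genes tested, 21.1% were called higher and 18.9% lower. These shares are the comparison for every count of called genes from this fit, also by role. The share called higher fell to 9.39% without MIZ-1WT replicate 1 and 11.8% without MIZ-1WT replicate 2, when 32 of the 50 genes were called higher in each case. All 50 genes passed the filter on low counts. They were detected in every library, with a lowest count of 47 (*Orc1* in MIZ-1WT replicate 2). The median log2 fold change of the 50, MIZ-1ΔPOZ over MIZ-1WT, was 0.63, against -0.01 over all genes tested. For 12 genes the difference was at least 2-fold. With limits of 0.6 on the log2 fold change and of 0.05 on the p before adjustment, 28 genes were higher and 1 lower, where 15.0% and 5.30% of all tested genes passed them.

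The summed level of the 50 genes was 2311 and 2285 CPM in MIZ-1WT and 3228 and 2963 CPM in MIZ-1ΔPOZ, where CPM is a gene's count per 1000000 counts on genes, with library sizes scaled by the trimmed mean of M values (TMM). Both MIZ-1ΔPOZ libraries lay above both MIZ-1WT libraries for 45 of the 50 genes and below both for 3. Over all genes tested these shares were 37.2% and 37.6%. MIZ-1ΔPOZ replicate 1 was above replicate 2 for 42 of the 50, where 49.5% of all tested genes had this order. Between the MIZ-1WT replicates, 26 of the 50 were higher in replicate 1, where 48.9% of all tested genes were. In RNA from a whole cell population, more cells that express a gene and more RNA of it per cell cannot be told apart.

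**Figure D1:**
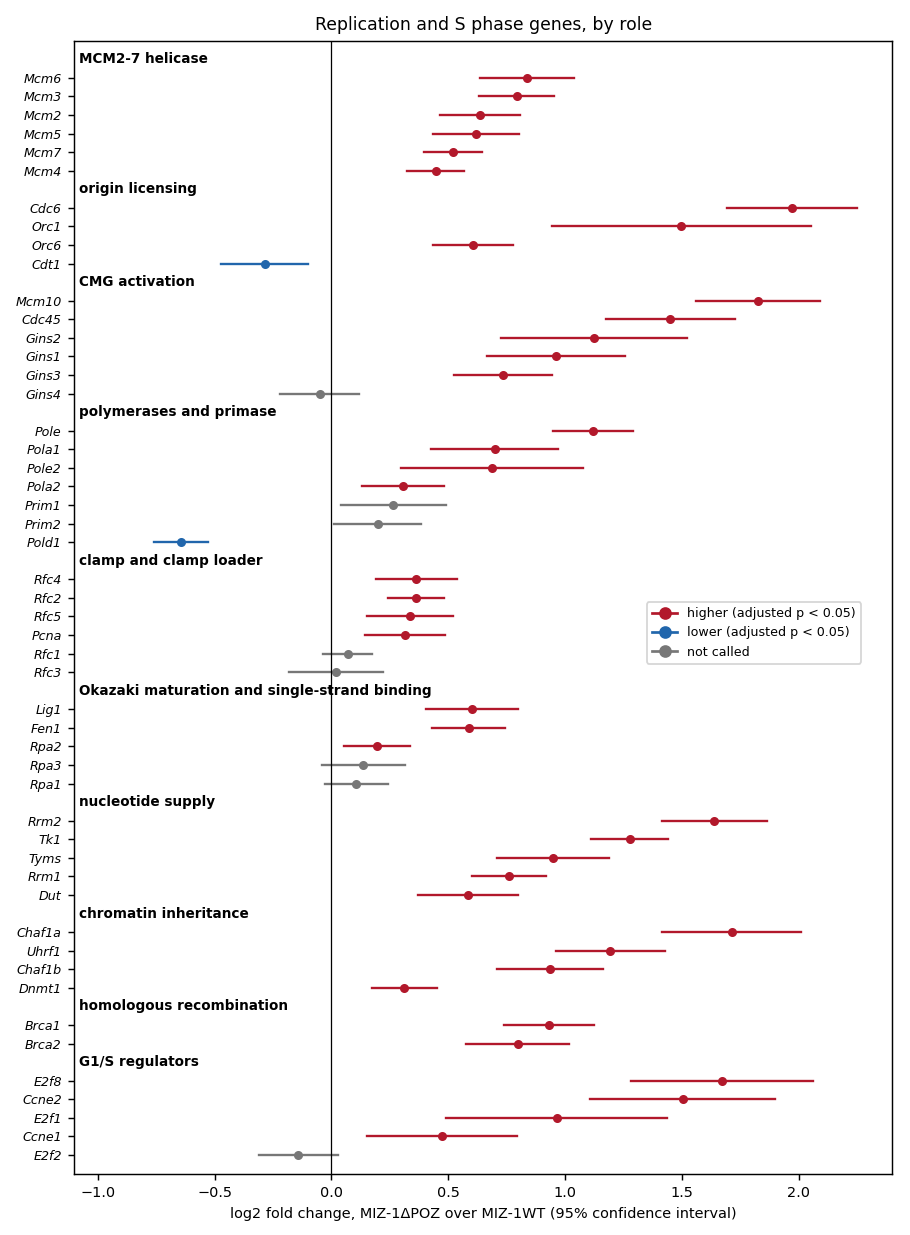
Log2 fold change of each of the 50 genes (MIZ-1ΔPOZ over MIZ-1WT, 2 libraries each) with its 95% confidence interval from edgeR, grouped by role. The 40 genes called higher (red) span every role, *Cdt1* and *Pold1* (blue) lie below 0, and 8 genes (grey) did not pass the adjusted p of 0.05.

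Some features of the 4 libraries apply to every value here. The libraries held between 43026814 and 46387209 counts on genes, with TMM factors of 0.977 to 1.03. Reads on no gene made up 27.2% and 25.5% of the column total in MIZ-1WT and 21.6% and 21.1% in MIZ-1ΔPOZ, a difference that moves with genotype and whose part in the results was not tested. *Zbtb17* was counted at 2087 and 1946 in MIZ-1WT and 1774 and 1669 in MIZ-1ΔPOZ (log2 fold change -0.32, adjusted p = 0.00857), but these counts cover all exons and do not show the loss of the POZ exons alone. *Xist*, expressed from the inactive X of females, had counts of 49 and 60 in MIZ-1WT and 38145 and 40838 in MIZ-1ΔPOZ, and the Y-linked *Ddx3y* had 15840 and 14896 in MIZ-1WT and 680 and 622 in MIZ-1ΔPOZ, so sex and genotype cannot be told apart for any gene in this comparison. Markers of other cells also moved, where 21.1% of all tested genes were called higher and 18.9% lower. All 16 macrophage markers were higher in MIZ-1ΔPOZ, with a summed level of 980.0 and 1305 CPM in MIZ-1WT and 5839 and 3650.3 CPM in MIZ-1ΔPOZ. Of 10 plasma cell markers 9 were higher, at 929 and 1253 CPM in MIZ-1WT and 2808 and 2629 CPM in MIZ-1ΔPOZ in sum. Of 9 germinal center markers 8 were higher and *Bcl6* was lower, with a sum of 164 and 171 CPM in MIZ-1WT and 340.3 and 273 CPM in MIZ-1ΔPOZ. *Bcl6* alone gave 114 and 105 CPM of this sum in MIZ-1WT and 42.7 and 42.99 CPM in MIZ-1ΔPOZ. The median log2 fold change of the 9 markers was 2.41. Of 10 genes listed as pan-B cell markers, 8 were lower, with a sum of 13391 and 13774 CPM in MIZ-1WT and 11221 and 11531 CPM in MIZ-1ΔPOZ. The largest decrease among them was that of *Cd79a*, the locus from which Cre was expressed. It was at 336 and 311 CPM in MIZ-1WT and 103 and 135 CPM in MIZ-1ΔPOZ (log2 fold change -1.44). The part of the Cre allele in this decrease was not tested. In MIZ-1ΔPOZ the macrophage, plasma cell and germinal center sums were, like most of the 50 genes, higher in replicate 1 than in replicate 2. The opposite order held for the pan-B cell, marginal zone, follicular, B cell precursor, erythroid, neutrophil, T cell and NK cell sums. For the marginal zone markers, which were all higher in MIZ-1ΔPOZ, the MIZ-1ΔPOZ sums were 3329 and 3567 CPM. The plasmacytoid dendritic cell and megakaryocyte sums were nearly level. The part of sex and of these cells in the results was not tested.

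The promoters of these genes were searched for the recognition word of E2F factors, because E2F drives the G1 to S programme. Promoter windows of 300 bases (250 before and 50 after the annotated start) were taken from RefSeq on GRCm38.p6 and were present for 42 of the 50 genes. The words searched were TTTGGCGC, TTTCCCGC, TTTGCCGC and TTTCGCGC on both strands. They were found in 17 of the 42 genes (40.5%), against 4.64% of the 10222 tested genes with a window and 2.60% of the 27025 genes with a window in the table. TTTGGCGC and TTTCGCGC were each found in 8 of the 42, TTTCCCGC in 7 and TTTGCCGC in none. The stretch around the word is printed for genes with large, small, absent and opposite changes, 5′ to 3′ on the strand of the gene, with the word or its reverse complement in capitals. Positions count from the RefSeq start as 0, which can differ from the GENCODE start of the gene coordinates given below. The words of Cdc6, Orc1 and Uhrf1, at negative positions, lie inside the GENCODE span of their gene. The word of E2f2, at a positive position, lies before its GENCODE start. For 39 of the 50 windows (some genes have several starts) the first 30 bases after this start lie in a GENCODE transcript of the gene, and for the other windows they were not found there.
Cdc6 (chr11:98908003-98908030, plus strand, word at -138): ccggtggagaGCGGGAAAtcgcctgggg
Orc1 (chr4:108579417-108579444, plus strand, word at -27): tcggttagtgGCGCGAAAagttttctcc
Uhrf1 (chr17:56304118-56304145, plus strand, word at -185): ccgagtcgggTTTCGCGCgcccaggcgt
Mcm6 (chr1:128359735-128359762, minus strand, word at -47): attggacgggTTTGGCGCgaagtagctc
Mcm3 (chr1:20820276-20820303, minus strand, word at 19): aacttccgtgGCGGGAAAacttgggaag
Mcm5 (chr8:75109350-75109377, plus strand, word at -149): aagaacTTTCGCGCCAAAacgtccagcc
Pola1 (chrX:93632276-93632303, minus strand, word at -138): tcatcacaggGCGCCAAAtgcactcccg
Dnmt1 (chr9:20952574-20952600, minus strand, word at 33): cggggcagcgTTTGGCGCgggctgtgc
Rfc3 (chr5:151651191-151651218, minus strand, word at 0): TTTCGCGCtcGCGGGAAAactctactgt
E2f2 (chr4:136172303-136172323, plus strand, word at 39): cggcatatagTTTGGCGCtaa
Cdt1 (chr8:122568037-122568064, plus strand, word at 32): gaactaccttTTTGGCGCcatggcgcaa
Pold1 (chr7:44548766-44548786, minus strand, word at 39): gtatcttgtgGCGGGAAAagc

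The word was present in 13 of 34 genes called higher, in both genes called lower and in 2 of 6 genes that were not called. Cdc6 and Pold1 carried the same reverse-complement word, GCGGGAAA, with changes of 1.97 and -0.64 on the log2 scale. The Mcm6 upstream region is given in full because it held 3 E2F words (of which 2 overlap) and 2 copies of the word CCAAT, the element of NF-Y, read on the opposite strand as ATTGG, all in capitals.
Mcm6 (chr1:128359706-128359955, minus strand): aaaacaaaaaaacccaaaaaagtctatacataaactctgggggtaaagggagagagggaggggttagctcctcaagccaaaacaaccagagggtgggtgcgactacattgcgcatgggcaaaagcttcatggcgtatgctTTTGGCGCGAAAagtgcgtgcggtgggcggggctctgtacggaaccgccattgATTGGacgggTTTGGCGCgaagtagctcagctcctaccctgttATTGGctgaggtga

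CCAAT was found in 26 of the 42 genes (61.9%), against 42.8% of the tested genes and 41.1% of all genes with a window. It was present in 20 of 34 genes called higher, 0 of 2 called lower and 6 of 6 not called. The CHR words of genes expressed in G2 and mitosis, TTTGAA and TTCGAA on both strands, were found in 9 (21.4%). The share was 16.9% of the tested genes and 21.7% of all genes with a window. A match describes the letters of the window, and binding was not measured.

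**Figure D2:**
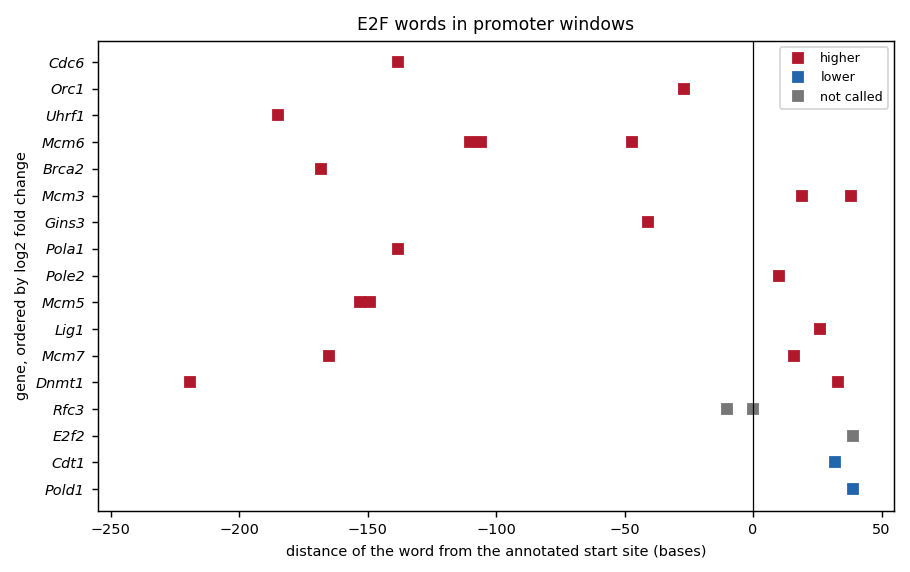
Position of each E2F word (squares) relative to the annotated start (0, vertical line; x axis in bases) in the promoter windows of the 17 genes that held one, ordered from the highest log2 fold change at the top to the lowest. Words were found both before and after the start, and in genes called higher (red), lower (blue) and not called (grey).

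All 6 subunits of the MCM2-7 helicase were higher in MIZ-1ΔPOZ, in a narrow range of log2 fold changes from 0.45 to 0.84. *Mcm6* (ENSMUSG00000026355, chr1:128331590-128359664 on GRCm38) was at 111 and 114 CPM in MIZ-1WT and 217 and 185 CPM in MIZ-1ΔPOZ (log2 fold change 0.84, 95% confidence interval 0.64 to 1.04, adjusted p = 0.00180), so that both MIZ-1ΔPOZ libraries were far above both controls. *Mcm3* had 73.5 and 71.8 against 133 and 119 CPM (log2 fold change 0.79, 95% confidence interval 0.63 to 0.95, adjusted p = 0.00129), given here and for other genes as replicates 1 and 2 of MIZ-1WT against replicates 1 and 2 of MIZ-1ΔPOZ. For *Mcm2* the values were 51.7 and 50.5 against 83.8 and 74.96 CPM (log2 fold change 0.64, 95% confidence interval 0.47 to 0.81, adjusted p = 0.00229). In these 3 genes MIZ-1ΔPOZ replicate 1 was the highest library. *Mcm5* was at 94.6 and 89.3 against 150.4 and 132 CPM (log2 fold change 0.62, adjusted p = 0.00290) and *Mcm7* at 67.9 and 67.5 against 99.2 and 95.1 CPM (log2 fold change 0.52, adjusted p = 0.00175). *Mcm4* had the smallest difference of the ring, with 78.04 and 74.4 against 104 and 104 CPM (log2 fold change 0.45, 95% confidence interval 0.33 to 0.57, adjusted p = 0.00239). The 6 proteins form the ring in equal numbers. Per length, as CPM per kilobase of merged exon, their RNA levels ran from 7.35 for *Mcm2* to 24.1 for *Mcm6* in MIZ-1WT, a ratio of 3.28, and from 11.4 to 43.1 in MIZ-1ΔPOZ, a ratio of 3.77.

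Among the genes that license origins, 3 were higher and 1 was lower. *Cdc6* (ENSMUSG00000017499, chr11:98907801-98923940 on GRCm38), the ATPase that works with the origin recognition complex to load the helicase, had the largest log2 fold change of the 50 genes, with levels of 4.33 and 4.26 CPM in MIZ-1WT and 17.9 and 15.8 CPM in MIZ-1ΔPOZ (log2 fold change 1.97, 95% confidence interval 1.69 to 2.25, adjusted p = 0.000754). *Orc1*, the largest subunit of the origin recognition complex, was scarce in the controls, at 1.58 and 1.12 against 4.01 and 3.62 CPM or 69, 47, 191 and 159 counts (log2 fold change 1.50, 95% confidence interval 0.94 to 2.05, adjusted p = 0.00546). *Orc6*, its smallest subunit, had 16.99 and 17.5 against 26.6 and 25.8 CPM (log2 fold change 0.60, adjusted p = 0.00262). In these 3 genes the groups were well apart. *Cdt1* (ENSMUSG00000006585, chr8:122568015-122573554 on GRCm38), which brings MCM2-7 to the origin and is held back by geminin outside G1, went the other way, with 41.2 and 37.1 CPM in MIZ-1WT and 33.01 and 31.3 CPM in MIZ-1ΔPOZ (log2 fold change -0.28, 95% confidence interval -0.47 to -0.10, adjusted p = 0.0303). The groups did not overlap, but the call was lost when MIZ-1WT replicate 1 (-0.21), MIZ-1WT replicate 2 (-0.36) or MIZ-1ΔPOZ replicate 2 (-0.24) was left out. The span of levels per length within this role narrowed from 32.2-fold in MIZ-1WT to 9.67-fold in MIZ-1ΔPOZ, and *Orc1* was lowest in both groups.

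Of the 6 genes for activation of the helicase, 5 were higher. *Mcm10*, needed for the CMG helicase to unwind, was at 5.52 and 5.04 CPM in MIZ-1WT and 19.8 and 17.7 CPM in MIZ-1ΔPOZ (log2 fold change 1.83, 95% confidence interval 1.56 to 2.09, adjusted p = 0.000758). *Cdc45*, which binds the MCM ring directly, was at 9.97 and 9.99 against 29.8 and 24.7 CPM (log2 fold change 1.45, 95% confidence interval 1.17 to 1.72, adjusted p = 0.00110). Both genes had all control values under those of either MIZ-1ΔPOZ library by a wide margin. GINS is a complex of 4 different subunits that are present together in CMG. *Gins2* was at 2.75 and 2.31 against 5.61 and 5.42 CPM (log2 fold change 1.12, 95% confidence interval 0.73 to 1.52, adjusted p = 0.00484). *Gins1* had 5.04 and 4.93 against 10.2 and 9.21 CPM (log2 fold change 0.96, 95% confidence interval 0.66 to 1.26, adjusted p = 0.00326) and *Gins3* 14.8 and 16.7 against 26.01 and 26.4 CPM (log2 fold change 0.73, 95% confidence interval 0.52 to 0.94, adjusted p = 0.00266). *Gins4* did not follow, with 39.2 and 36.97 against 38.1 and 35.5 CPM, overlapping groups and a log2 fold change of -0.05 (95% confidence interval -0.22 to 0.12, adjusted p = 0.584). It was already the most abundant of the 4 per length in MIZ-1WT, at 28.3 CPM per kilobase, against 5.82 for *Gins3*, 3.29 for *Gins1* and 0.617 for *Gins2*. Of the 4097 exon bases of *Gins2*, 2758 are overlapped on the opposite strand by *Gse1*, which was lower in MIZ-1ΔPOZ (log2 fold change -0.63), and the strand setting of the counts is not given in the sources used here.

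The polymerases diverged. *Pole*, the catalytic subunit of the leading strand polymerase epsilon, was at 18.6 and 20.03 CPM in MIZ-1WT and 42.6 and 41.4 CPM in MIZ-1ΔPOZ (log2 fold change 1.12, 95% confidence interval 0.95 to 1.29, adjusted p = 0.000764), while *Pold1* (ENSMUSG00000038644, chr7:44532746-44548849 on GRCm38), the catalytic subunit of the lagging strand polymerase delta, was at 186 and 178 CPM in MIZ-1WT and 118 and 115 CPM in MIZ-1ΔPOZ (log2 fold change -0.64, 95% confidence interval -0.76 to -0.53, adjusted p = 0.00102). In both genes the 2 groups were separated by much more than the replicates differed, in opposite directions. *Pold1* was the most abundant of the 7 genes per length, at 37.4 in MIZ-1WT and 23.98 in MIZ-1ΔPOZ CPM per kilobase, and *Pole* the least, at 1.73 in MIZ-1WT and 3.76 in MIZ-1ΔPOZ. The ratio between them went from 21.6 to 6.38. *Pole2*, an accessory subunit of polymerase epsilon, had 7.86 and 10.4 against 15.8 and 13.6 CPM (log2 fold change 0.69, 95% confidence interval 0.30 to 1.08, adjusted p = 0.0196), with control replicates further apart than the MIZ-1ΔPOZ replicates and the call lost without MIZ-1WT replicate 1 (0.50). *Pola1*, the catalytic subunit of polymerase alpha and the only one of the 50 genes on the X chromosome, was at 59.1 and 56.9 against 105 and 83.5 CPM (log2 fold change 0.70, 95% confidence interval 0.43 to 0.97, adjusted p = 0.00624). *Pola2*, its accessory subunit, was at 26.5 and 27.7 against 34.8 and 32.2 CPM (log2 fold change 0.31, adjusted p = 0.0200), and lost its call when either MIZ-1WT library or MIZ-1ΔPOZ replicate 1 was left out (0.27, 0.34 and 0.25). The primase subunits lay above the controls in both MIZ-1ΔPOZ libraries without passing the test. *Prim1*, which makes the RNA primer, had 34.2 and 34.6 against 44.8 and 37.8 CPM and a log2 fold change of 0.26 (95% confidence interval 0.04 to 0.49, adjusted p = 0.0649). *Prim2*, the large subunit, had 24.4 and 24.5 against 29.4 and 26.7 CPM and 0.20 (95% confidence interval 0.01 to 0.38, adjusted p = 0.0849). Both passed the test without MIZ-1ΔPOZ replicate 2 (0.39 and 0.28).

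**Figure D3:**
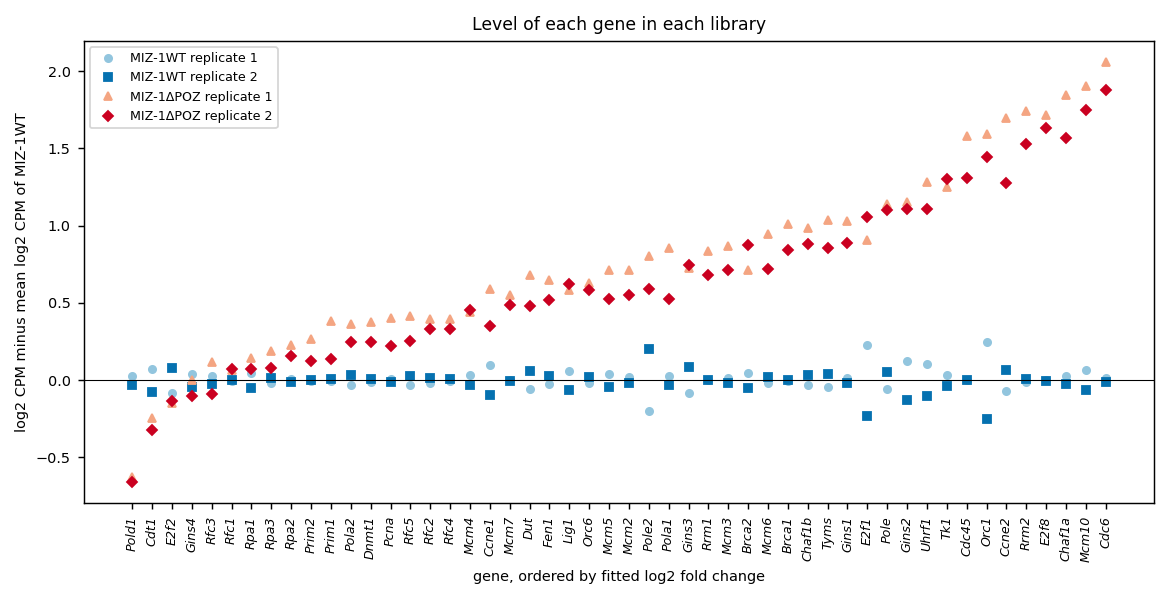
Level of each of the 50 genes in each of the 4 libraries, as log2 CPM minus the mean log2 CPM of the 2 MIZ-1WT libraries (y axis), ordered by log2 fold change (x axis). The MIZ-1ΔPOZ libraries (triangles and diamonds) lie above both MIZ-1WT libraries (circles and squares) for 45 genes, and *Pold1* and *Cdt1* lie below at the left end.

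Of the sliding clamp and its loader, 4 genes were higher and 2 were not called. *Pcna*, the clamp that holds polymerases on DNA and the gene with the highest level per length of all 50 (47.1 in MIZ-1WT and 58.5 in MIZ-1ΔPOZ CPM per kilobase), was at 114 and 112 CPM in MIZ-1WT and 149 and 131 CPM in MIZ-1ΔPOZ (log2 fold change 0.31, 95% confidence interval 0.14 to 0.48, adjusted p = 0.0174). *Rfc2* was at 93.5 and 95.5 against 124 and 119 CPM (log2 fold change 0.36, 95% confidence interval 0.24 to 0.48, adjusted p = 0.00381), *Rfc4* at 19.1 and 19.2 against 25.2 and 24.1 CPM (log2 fold change 0.36, adjusted p = 0.0114) and *Rfc5* at 31.5 and 32.8 against 42.7 and 38.4 CPM (log2 fold change 0.34, adjusted p = 0.0178). These small subunits of replication factor C form the loader together with *Rfc1*, its large subunit, and *Rfc3*. *Rfc1* had 161 and 161 against 169 and 169 CPM and a log2 fold change of 0.07 (95% confidence interval -0.03 to 0.17, adjusted p = 0.234). For *Rfc3* the groups overlapped, with 44.3 and 42.8 against 47.2 and 40.97 CPM and 0.02 (95% confidence interval -0.18 to 0.22, adjusted p = 0.877). The range over the 6 genes was 0.02 to 0.36. *Pcna*, *Rfc4* and *Rfc5* lost their calls without either MIZ-1WT library, at log2 fold changes of 0.30 to 0.37. *Pcna-ps2*, a processed pseudogene of *Pcna*, had counts of 216 and 198 in MIZ-1WT and 309 and 272 in MIZ-1ΔPOZ. Reads not uniquely aligned were counted apart from any gene, and how many of them came from these copies was not measured.

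Of the genes for Okazaki fragment processing and single-strand binding, *Fen1*, which cuts the displaced flap, had 52.5 and 54.3 CPM in MIZ-1WT and 83.9 and 76.7 CPM in MIZ-1ΔPOZ (log2 fold change 0.59, 95% confidence interval 0.43 to 0.74, adjusted p = 0.00225). *Lig1*, the ligase that seals the nick, had 16.2 and 14.9 against 23.3 and 23.8 CPM (log2 fold change 0.60, 95% confidence interval 0.41 to 0.80, adjusted p = 0.00371). Both enzymes were separated between the groups. The 3 subunits of RPA, the complex that coats single-stranded DNA in replication and also in repair, had log2 fold changes under 0.20. *Rpa2* was at 40.05 and 39.5 against 46.6 and 44.4 CPM (log2 fold change 0.19, 95% confidence interval 0.05 to 0.34, adjusted p = 0.0423), the largest adjusted p among the 42 called genes. *Rpa1* had 212 and 198 against 227 and 215 CPM and a log2 fold change of 0.11 (95% confidence interval -0.03 to 0.24, adjusted p = 0.172), and *Rpa3* had 23.7 and 24.2 against 27.4 and 25.3 CPM and 0.14 (95% confidence interval -0.04 to 0.31, adjusted p = 0.183). The call of *Rpa2* was lost without MIZ-1WT replicate 1, MIZ-1WT replicate 2 or MIZ-1ΔPOZ replicate 1, under the DESeq2 Wald test, without the filter and with a replicate block, at log2 fold changes of 0.16 to 0.20.

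All 5 genes of nucleotide supply were higher. *Rrm2* (ENSMUSG00000020649, chr12:24708241-24714146 on GRCm38), the regulatory subunit of ribonucleotide reductase whose level rises in S phase, was at 14.9 and 15.1 CPM in MIZ-1WT and 50.1 and 43.1 CPM in MIZ-1ΔPOZ (log2 fold change 1.64, 95% confidence interval 1.41 to 1.86, adjusted p = 0.000739). Its partner *Rrm1*, the large catalytic subunit, had 92.4 and 92.4 against 165 and 148 CPM (log2 fold change 0.76, 95% confidence interval 0.60 to 0.92, adjusted p = 0.00134). *Tk1*, the S phase thymidine kinase of the salvage pathway, had 17.4 and 16.5 against 40.4 and 41.8 CPM (log2 fold change 1.28, 95% confidence interval 1.11 to 1.44, adjusted p = 0.000739). In *Tk1* the MIZ-1ΔPOZ replicates were nearly level. *Tyms*, which makes thymidylate, was at 10.6 and 11.2 against 22.3 and 19.7 CPM (log2 fold change 0.95, 95% confidence interval 0.71 to 1.19, adjusted p = 0.00197), and *Dut*, which removes dUTP, at 31.6 and 34.3 against 52.7 and 45.98 CPM (log2 fold change 0.58, 95% confidence interval 0.37 to 0.80, adjusted p = 0.00536). The sum over the 5 genes was 167 and 169 CPM in MIZ-1WT and 331 and 298 CPM in MIZ-1ΔPOZ.

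The genes that restore chromatin behind the fork were also all higher. *Chaf1a*, the large subunit of the histone chaperone CAF-1, was at 6.67 and 6.42 CPM in MIZ-1WT and 23.5 and 19.4 CPM in MIZ-1ΔPOZ (log2 fold change 1.71, 95% confidence interval 1.42 to 2.01, adjusted p = 0.000933), and its partner *Chaf1b* at 8.23 and 8.59 against 16.6 and 15.5 CPM (log2 fold change 0.93, 95% confidence interval 0.71 to 1.16, adjusted p = 0.00183). *Uhrf1*, which recognises hemimethylated DNA, had 33.8 and 29.4 against 76.6 and 67.9 CPM (log2 fold change 1.19, 95% confidence interval 0.96 to 1.43, adjusted p = 0.00117). *Dnmt1*, the maintenance methyltransferase that UHRF1 recruits, had 193 and 196 against 252 and 230.3 CPM (log2 fold change 0.31, 95% confidence interval 0.17 to 0.45, adjusted p = 0.00960), and its call was lost without MIZ-1WT replicate 1 (0.30) or replicate 2 (0.32). Of the 8854 exon bases of *Chaf1a*, 4648 are overlapped on the opposite strand by *Ubxn6*, which was lower in MIZ-1ΔPOZ (log2 fold change -0.28). Over the 32 genes whose exons no annotated gene overlaps on either strand, 23 were higher and 2 lower, with a median of 0.60. The shares over all tested genes were 21.1% higher and 18.9% lower. *Brca1*, which acts in homologous recombination, was at 22.4 and 22.5 against 45.4 and 40.3 CPM (log2 fold change 0.93, 95% confidence interval 0.74 to 1.12, adjusted p = 0.00135). *Brca2*, which acts in the same pathway, was at 15.7 and 14.7 against 24.9 and 27.9 CPM (log2 fold change 0.80, 95% confidence interval 0.58 to 1.02, adjusted p = 0.00245).

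Among the regulators of the G1 to S switch, *E2f8*, an atypical E2F that represses E2F targets late in S phase, was at 1.67 and 1.67 CPM in MIZ-1WT and 5.48 and 5.17 CPM in MIZ-1ΔPOZ (log2 fold change 1.67, 95% confidence interval 1.28 to 2.06, adjusted p = 0.00172). *E2f1*, an activating E2F, had 3.83 and 2.78 against 6.14 and 6.79 CPM (log2 fold change 0.96, 95% confidence interval 0.49 to 1.44, adjusted p = 0.0126), with the 2 controls apart from each other and the call lost without MIZ-1WT replicate 2 (0.75). *E2f2*, another activating E2F, had 61.1 and 68.4 against 58.4 and 58.99 CPM, with both MIZ-1ΔPOZ libraries a little under the controls. Its log2 fold change was -0.14 (95% confidence interval -0.31 to 0.03, adjusted p = 0.150). Per length, *E2f2* stood at 13.3 in MIZ-1WT and 12.02 in MIZ-1ΔPOZ CPM per kilobase, *E2f1* at 1.05 in MIZ-1WT and 2.05 in MIZ-1ΔPOZ, and *E2f8* at 0.307 in MIZ-1WT and 0.979 in MIZ-1ΔPOZ. The cyclins E activate CDK2 to start S phase. *Ccne2* was at 6.67 and 7.33 against 22.7 and 16.9 CPM (log2 fold change 1.50, 95% confidence interval 1.11 to 1.90, adjusted p = 0.00221), and *Ccne1* at 9.19 and 8.02 against 12.9 and 10.96 CPM (log2 fold change 0.47, 95% confidence interval 0.15 to 0.79, adjusted p = 0.0337), whose call was lost without either MIZ-1WT library or MIZ-1ΔPOZ replicate 1 (0.57, 0.38 and 0.35). Of the 3495 exon bases of *Ccne2*, 609 are overlapped on the opposite strand by *Ints8*, which was lower in MIZ-1ΔPOZ (log2 fold change -0.31).

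Genes with a low level in the controls had the larger log2 fold changes. Over the 50 genes, Spearman's rho between the mean CPM per kilobase in MIZ-1WT and the log2 fold change was -0.74, as a description across genes that share the same 4 libraries. When level and change were taken from different MIZ-1WT libraries rho was again -0.74 in either direction, and over the 14430 tested genes with an exon length it was -0.28. The 10 genes lowest in MIZ-1WT (*E2f8*, *Orc1*, *Gins2*, *Mcm10*, *Chaf1a*, *Cdc6*, *E2f1*, *Brca2*, *Pole* and *Tyms*), at 0.307 to 1.79 CPM per kilobase, were all called higher, with a median log2 fold change of 1.31. Of the 10 highest (*Mcm4*, *Fen1*, *Mcm5*, *Mcm6*, *Dnmt1*, *Rfc1*, *Gins4*, *Rpa1*, *Pold1* and *Pcna*), at 21.2 to 47.1, 6 were higher and 1 was lower, with a median of 0.31.

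**Figure D4:**
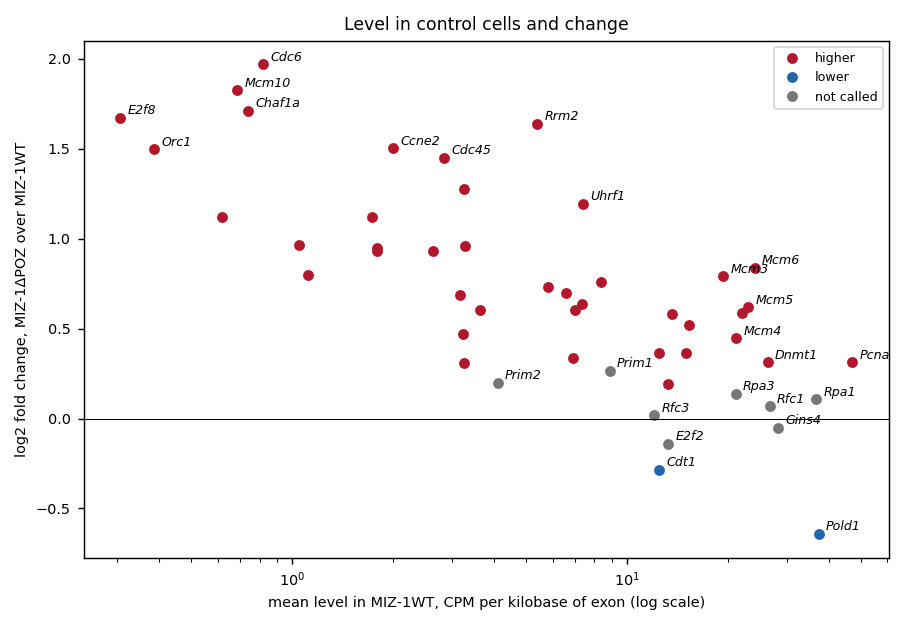
Mean level of each of the 50 genes in MIZ-1WT, in CPM per kilobase of exon on a log axis (x axis), against its log2 fold change, MIZ-1ΔPOZ over MIZ-1WT (y axis). Genes under 2 CPM per kilobase were all called higher (red), and the genes called lower (blue) or not called (grey) lie to the right.

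Other genes of the cycle were taken from 4 further lists. Of 60 other replication genes, 35 were higher and 8 lower, with a median log2 fold change of 0.36, where 21.1% and 18.9% of all tested genes were. The 8 lower genes do not exceed that share, so their count is no result about the list. *Pclaf*, a PCNA-binding protein, was at 25.5 and 26.8 against 122 and 96.2 CPM (log2 fold change 2.06, adjusted p = 0.000755), *Fancd2* of the Fanconi anemia pathway at 7.59 and 7.45 against 22.1 and 19.5 CPM (log2 fold change 1.47, adjusted p = 0.000867), and *Clspn*, a mediator of the replication checkpoint, at 6.65 and 6.97 against 31.9 and 24.4 CPM (log2 fold change 2.05, adjusted p = 0.000961). Lower were *Samhd1*, which degrades deoxynucleotides and so opposes ribonucleotide reductase, at 539 and 549 against 385 and 394 CPM (log2 fold change -0.48, adjusted p = 0.00175), *Pole4*, a small subunit of polymerase epsilon, at 96.4 and 90.2 against 67.1 and 63.5 CPM (log2 fold change -0.51, adjusted p = 0.00266), and *Donson*, at 70.8 and 69.1 against 60.1 and 56.9 CPM (log2 fold change -0.26, adjusted p = 0.0153). Subunits of the same polymerase therefore lay on both sides, with *Pole* and *Pole2* higher and *Pole4* lower. The same held for polymerase delta. *Pold1* was lower, while *Pold2* was higher, at 17.9 and 16.9 against 22.04 and 22.1 CPM (log2 fold change 0.34, adjusted p = 0.0164). *Pold3* was not called (log2 fold change -0.08, adjusted p = 0.259). Leaving out MIZ-1WT replicate 1 gave 22 higher and 2 lower genes, and the lower genes numbered 2 without MIZ-1WT replicate 2 and 5 without MIZ-1ΔPOZ replicate 2.

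Of 22 E2F, RB and S phase kinase genes, 11 were higher and 5 lower, with a median of 0.15. Among all tested genes 21.1% were higher and 18.9% lower. The 5 lower genes are close to that share, so their count is no result about the list. The lower genes numbered 2 under the DESeq2 Wald test, 2 with a replicate block and 3 with a filter on a mean of 1 CPM. *Ccna2*, cyclin A2 of S phase and G2, was at 16.7 and 18.4 against 83.4 and 68.7 CPM (log2 fold change 2.12, adjusted p = 0.000739), *Cks1b*, a CDK subunit, at 5.46 and 6.26 against 18.3 and 17.6 CPM (log2 fold change 1.62, adjusted p = 0.000813), and *Tfdp1*, the main dimer partner of E2F, at 16.1 and 14.7 against 31.03 and 30.1 CPM (log2 fold change 0.99, adjusted p = 0.00117). Lower were *Lin54* at 44.4 and 45.4 against 33.2 and 33.5 CPM (log2 fold change -0.43, adjusted p = 0.00365) and *Lin9* at 25.8 and 28.5 against 22.7 and 22.5 CPM (log2 fold change -0.27, adjusted p = 0.0387), subunits of the MuvB core that takes part in repression in resting cells and in activation of mitotic genes, and *Tfdp2* at 35.6 and 37.9 against 26.7 and 28.7 CPM (log2 fold change -0.41, adjusted p = 0.00877). Without either MIZ-1WT library 7 genes of the list were higher, and 1 to 3 were lower when any 1 library was left out (2 and 1 without MIZ-1WT replicates 1 and 2, 3 without either MIZ-1ΔPOZ library).

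Of 30 mitosis genes 29 were higher, with a median of 1.83, where 21.1% of all tested genes were higher. Their sum went from 467 and 464 CPM in MIZ-1WT to 1732 and 1491 CPM in MIZ-1ΔPOZ. *Mki67*, the antigen Ki-67 of cycling cells, was at 61.99 and 58.2 against 267 and 261 CPM (log2 fold change 2.13, adjusted p = 6.06e-05), *Tpx2*, a spindle assembly factor, at 9.995 and 10.3 against 45.4 and 41.1 CPM (log2 fold change 2.09, adjusted p = 0.000468), and *Kif11*, the motor that separates spindle poles, at 27.2 and 28.2 against 120.4 and 98.9 CPM (log2 fold change 1.98, adjusted p = 0.000739). *Cenpa*, the centromeric histone, did not pass the test, with 18.8 and 19.4 against 20.1 and 21.96 CPM (log2 fold change 0.14, adjusted p = 0.216). Whether the mitosis genes and the 50 replication genes differ in size of change was not tested.

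Of 12 G1 cyclins and CDK inhibitors, 11 were tested, 2 were higher and 3 lower, with a median of 0.12. These counts are close to the 21.1% and 18.9% of all tested genes, so they are no result about the list. The CDK inhibitors *Cdkn1b*, at 287 and 275 against 183 and 188 CPM (log2 fold change -0.60, adjusted p = 0.00118), and *Cdkn2d*, at 28.3 and 29.4 against 19.2 and 19.8 CPM (log2 fold change -0.57, adjusted p = 0.00289), were lower, as was *Ccnd3*, the D cyclin of germinal center and precursor B cells, at 98.97 and 117 against 76.4 and 75.8 CPM (log2 fold change -0.50, adjusted p = 0.00775). Higher were *Cdk4*, the partner of D cyclins, at 92.7 and 90.8 against 121 and 112 CPM (log2 fold change 0.34, adjusted p = 0.00676), and the inhibitor *Cdkn2c*, at 13.4 and 13.5 against 24.4 and 21.4 CPM (log2 fold change 0.77, adjusted p = 0.00290). Without either MIZ-1WT library 1 gene was called higher.

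**Figure D5:**
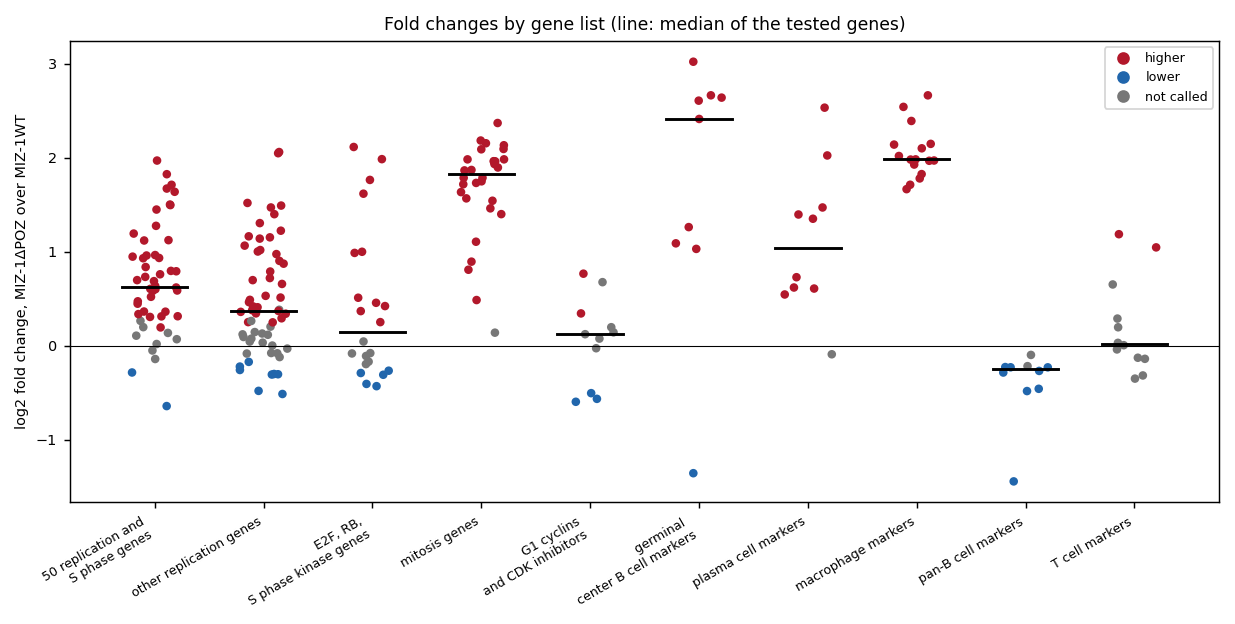
Log2 fold change, MIZ-1ΔPOZ over MIZ-1WT (y axis), of every tested gene (points) in the 50 replication and S phase genes, the 4 other cell cycle lists and 5 marker lists, with the median of each list as a line. The median was 0.63 for the 50 genes, 1.83 for mitosis genes, 1.98 for macrophage markers and -0.25 for pan-B cell markers.

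Among germinal center markers the most abundant were *Bcl6*, the master repressor of that stage, at 114 and 105 against 42.7 and 42.99 CPM, *Mybl1* at 11.99 and 16.7 against 86.4 and 66.4 CPM and *Nuggc* at 5.43 and 6.50 against 45.1 and 30.5 CPM, so the defining factor was lower while the other 2 were higher. Of the macrophage markers, *Vcam1* was at 265 and 345 against 1515 and 899 CPM, *Slc40a1*, the iron exporter of red pulp macrophages, at 80.8 and 123 against 734 and 450.3 CPM and *Mrc1* at 98.3 and 132 against 539.6 and 394 CPM. Of the plasma cell markers, *Jchain* was at 302 and 616 against 1948 and 1787 CPM, *Irf4* at 243 and 235 against 216 and 233 CPM (not called) and *Xbp1* at 163 and 181 against 261 and 242 CPM. All 6 marginal zone markers were higher (*Cr2* 2148 and 2170.1 against 2472 and 2657 CPM, *Dtx1* 274 and 251 against 399.7 and 421 CPM, *Myof* 80.2 and 112 against 190.1 and 212 CPM), and 4 of 5 tested follicular markers were lower (*Satb1* 287 and 260.0 against 121 and 127 CPM, *Fcer2a* 238 and 247 against 123 and 168 CPM). Of the 10 pan-B cell markers *Ms4a1* was the most abundant, at 3821 and 4013 against 3309 and 3369.8 CPM, followed by *Ptprc* at 3273 and 3365 against 2863 and 2799 CPM and *Cd79b* at 2032 and 2069 against 1709 and 1795 CPM. *Ptprc* encodes every form of CD45 and not B220 alone, so its counts are not limited to B cells. Of 12 T cell markers 2 were called, both higher, and of 7 NK cell markers 1. Of 14 tested erythroid markers 3 were higher, of 9 tested neutrophil markers 3 and of 3 tested megakaryocyte markers 1, where 21.1% of all tested genes were higher. The erythroid sum was 53.5 and 66.7 CPM in MIZ-1WT and 47.5 and 129 CPM in MIZ-1ΔPOZ, with MIZ-1ΔPOZ replicate 2 apart from the other libraries. The sum of 6 plasmacytoid dendritic cell markers was 236 and 219 CPM in MIZ-1WT and 219 and 219 CPM in MIZ-1ΔPOZ. Of 4 tested B cell precursor markers 2 were lower. The shares of all tested genes that stand beside each marker list here were 18.9% lower and 21.1% higher. The macrophage sum lay at 980 to 1305 CPM in MIZ-1WT and 3650 to 5839 CPM in MIZ-1ΔPOZ, with all 16 markers detected in every library. Its part in the result on the 50 genes was not tested.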

How the data were processed

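RNA was measured by paired-end, ribosome-depleted stranded sequencing in 4 libraries, 2 of each genotype. The counts deposited by the authors are whole reads per Ensembl gene, made with Trimmomatic, TopHat2 (version 2.1.0 in the submitters' processing notes) on mm10 and HTSeq. The strand setting and the Ensembl release are not given in the sources used here. Symbols, coordinates and exon lengths came from GENCODE vM21, promoter windows from RefSeq on GRCm38.p6. The 14554 of 41214 genes that reached 10 counts in 2 or more libraries were tested with edgeR 4.0.16 (TMM, quasi-likelihood F-test, no covariate) in R 4.3.3, two-sided, with Benjamini-Hochberg adjustment at 0.05. The common dispersion was 0.00848. Confidence intervals (95%) were derived from the fold change and the F statistic. Levels per length are CPM per kilobase of merged exon. Rows that name no gene were left out of library sizes (reads on no gene were 21.1% to 27.2% of each column's total, and reads not uniquely aligned 42.8% to 44.1%). The labels number the libraries as replicates, and the sources used here describe them as biological duplicates. They do not state outright that the libraries came from separate animals, so p-values cover the spread between these samples.

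The 50 genes, their roles, the other gene lists and the words searched were chosen with earlier results of these data known. Per-library values are given for each called gene, for the gene with the smallest p and the highest mean CPM of each role, for the leading 3 called genes by p, both upward and downward, of each cell cycle list, and for the 3 most abundant markers of lists that moved. Alternatives were the size factors of DESeq2, its Wald test (1.42.0), no filter, a filter on a mean of 1 CPM, removal of 257 immunoglobulin segments, a replicate block, and each library left out. One marker that this rule names is not reported here.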

Additional observations from a re-analysis of the deposited data

How the results depend on the processing

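With 2 libraries a group, leaving out 1 assumes that the lone library of its group varies like the other pair. Genes called among the 50 numbered 40 higher with DESeq2 size factors, a 1 CPM filter or no immunoglobulin segments, 39 under the DESeq2 Wald test, no filter or the replicate block (*Rpa2* lost), and 32 to 42 with a library left out. All 40 kept a positive log2 fold change under every alternative run, and 31 kept the call. With a library left out, 1 to 2 genes were called lower, and the median log2 fold change of the 50 was 0.57 to 0.72. *Gins4* ranged from -0.102 to 0.00949, with the sign reversed without MIZ-1ΔPOZ replicate 2, and *Rfc3* from -0.0857 to 0.126, reversed without MIZ-1ΔPOZ replicate 1 and, at -0.01, without MIZ-1WT replicate 2. *Prim1* (0.39) and *Prim2* (0.28) passed the test without MIZ-1ΔPOZ replicate 2. Leaving out a library gave 22 to 37 other replication genes higher (22 without MIZ-1WT replicate 1) and 2 to 7 lower, 7 to 10 E2F, RB and S phase kinase genes higher (7 without either MIZ-1WT library) and 1 to 3 lower, and 1 to 2 G1 genes higher (1 without either MIZ-1WT library). The E2F, RB and S phase kinase genes called lower numbered 2 under the DESeq2 Wald test, 3 under the 1 CPM filter and 2 under the replicate block. The cause of these shifts was not tested. Over all genes 5822 were called, 2204 without MIZ-1WT replicate 1, 2825 without MIZ-1WT replicate 2, and 4732 to 5952 otherwise. The labels do not say that equal replicate numbers share an animal or a batch, and the deviations of same-numbered libraries had a correlation of -0.07, so the block was not used for the values given. Counts of 47 to 191 limit *Orc1*, the gene with the fewest reads.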
